A study of Homo sapiens with 8 samples.

Results

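Expression of 10 genes of the BCL2 family was followed in 2 breast cancer cell lines with amplified HER2. The genes were taken by symbol and made up 10 of the 20531 genes listed in the gene tables. All 10 were listed once in every table, and all 10 passed the filter on low values (10 or more in at least 1 library), which kept 14429 genes. They comprised 3 prosurvival genes (BCL2, BCL2L1 and MCL1), 5 BH3-only genes (BCL2L11, BMF, BBC3, PMAIP1 and BIK) and 2 effector genes (BAX and BAK1).

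Poly(A) RNA was sequenced from SKBR-3 cells, a HER2-amplified line that lacks the estrogen and progesterone receptors, and from BT474m1 cells, a HER2-amplified derivative of BT474 that carries both. Each line was cultured in RPMI with 10% serum and given, for 48 h, vehicle alone (DMSO), lapatinib at 300 nM, which blocks the kinases EGFR and HER2, JQ1 at 300 nM, which keeps the BET proteins off acetylated chromatin, or the pair at those doses. The 4 treatments in 2 lines gave 8 groups of 1 library, so no difference within a line could be set against a spread between cultures. The only test made was a fit over both lines, given after the counts. Neither line stands for more than 1 tumor, and the names of the deposited tables mark the 4 libraries of each line as a set of their own, so that line and handling cannot be told apart.

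Proteins of the BCL2 family decide whether a cell opens its outer mitochondrial membrane, the step that releases cytochrome c and starts the caspases. The effectors BAX and BAK form the pores, the prosurvival proteins BCL2, BCL-XL and MCL1 hold them in check, and the BH3-only proteins report stress or loss of growth signals by binding the prosurvival proteins or the effectors. In HER2-amplified breast cells, signaling from HER2 through the MAPK and PI3K pathways is known to keep BIM, the product of BCL2L11, low, and much of the control of these proteins lies in their modification and turnover, which RNA does not show.

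Depth ran from 21420110 to 34112354 reads on genes per library, and 1 read was worth 0.4715 to 0.7657 units of normalised read count, the authors' gene value scaled to an upper quartile of 1000. For all 10 genes every library held whole numbers of reads, within 0.05 of a read, so that intervals could be computed from counts. ERBB2, the HER2 gene, lay at 94678 or more in all 8 libraries, and the luminal keratins KRT8, KRT18 and KRT19 lay at 10734 or more. The adhesion gene CDH1 lay at 15.1 or below in SKBR-3 against 19413 or above in BT474m1. ESR1 and PGR lay at 189.9 or above in BT474m1 and at 16.8 or below in SKBR-3. Of the markers of other cell types, PTPRC, CD3E, COL1A2, PECAM1 and KRT14 lay at 3.38 or below throughout, COL3A1 at 8.02 or below and KRT5 at 14.1 or below. COL1A1 lay between 24.1 and 124 in SKBR-3 and between 337 and 1253 in BT474m1, CD68 between 178 and 407 and between 11.8 and 27.7, and TP63 at 5.01 or below and at 38.2 or below. Several of these markers moved by at least 2-fold with treatment. ERBB2 was higher in SKBR-3 with lapatinib and with both drugs (log2 fold change 1.30 in each). In BT474m1 it did not reach 2-fold with either (0.31 and 0.12). The endothelial VWF and the basal TP63 were lower with all 3 treatments than with DMSO in BT474m1 (log2 fold changes of -2.28 to -4.62 and of -2.63 to -3.83). VWF was also lower with JQ1 in SKBR-3 (-3.03, on 3 reads). COL1A1 was lower with lapatinib (-1.79) and both drugs (-2.32) in SKBR-3, and with JQ1 (-1.67) and both drugs (-1.89) in BT474m1. CD68 was higher with lapatinib in both lines (1.19 and 1.17), and with JQ1 in SKBR-3 the luminal KRT8, KRT18 and KRT19 were higher (1.84, 1.82 and 1.47), KRT8 and KRT18 also under the pair (1.05 and 1.09). In BT474m1 both hormone receptor genes were higher with lapatinib (ESR1 1.12, PGR 3.86) and lower in the JQ1 libraries, with and without lapatinib (-1.56 to -2.14). KRT5, TP63, CDH1, ESR1 and PGR in SKBR-3 also passed 2-fold under some treatments, on 22 reads or fewer. VWF lay between 1.93 and 24.5 in SKBR-3 and between 5.25 and 153 in BT474m1. The part of these markers in the results was not tested.

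The design asks how each drug, and the pair of drugs, moved the balance of these genes in each line. BMF was higher and BCL2 lower with lapatinib and with both drugs in both lines, each by at least 2-fold, and BBC3 joined BMF with both drugs. The BCL2 value with lapatinib in BT474m1 was near that limit, at -1.01 on the log2 scale, and missed it at -0.80 with a pseudocount of 10. MCL1 stayed the highest of the 10 genes per length in every library, and was higher with each drug treatment than with DMSO in both lines. BCL2L1, BAX and PMAIP1 had opposite signs in the lines with both drugs, as 29.6% of all genes did, while 5 of the 10 were upward in both lines (31.3% of all genes) and 2 downward (35.5%). In these bulk libraries a change in the share of cells and a change in RNA per cell cannot be told apart.

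**Figure D1:**
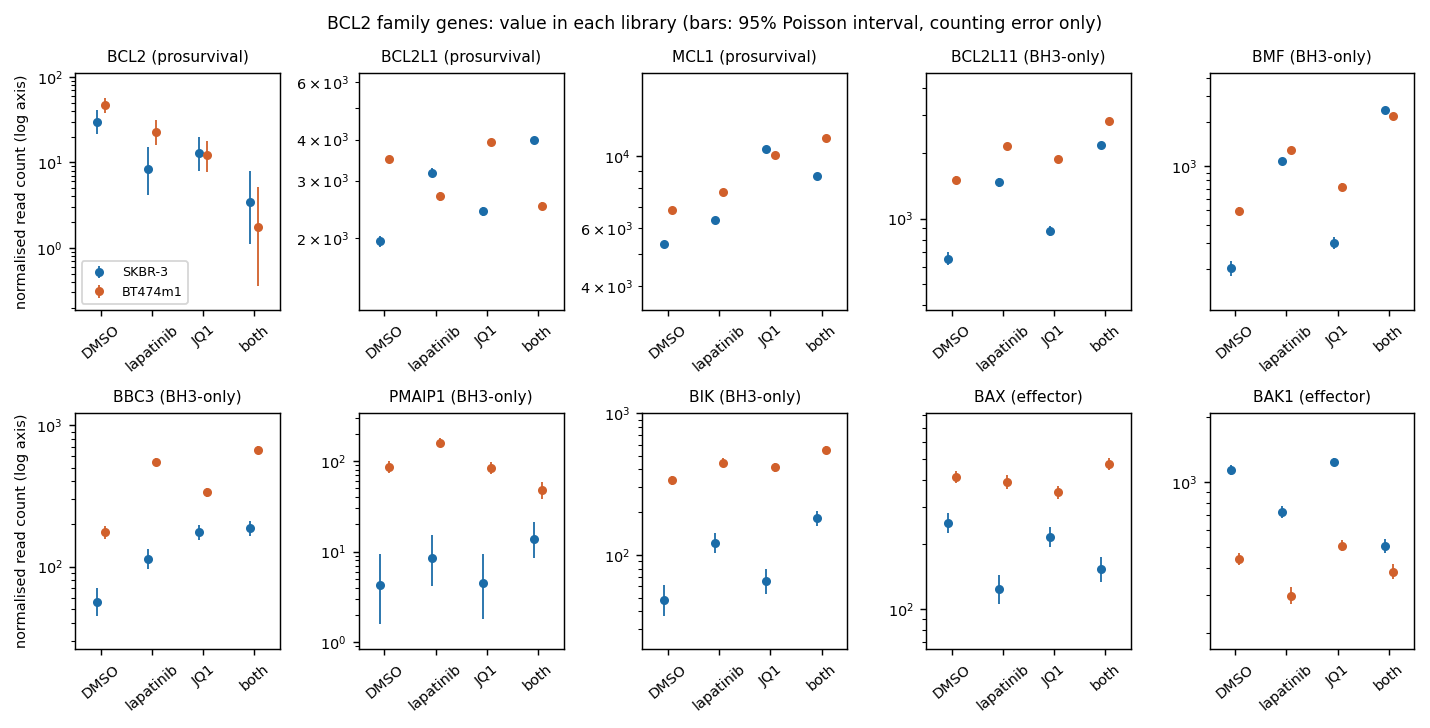
The 10 panels plot the normalised read count of each gene (log axis) in the 8 libraries, by treatment along the horizontal axis, with SKBR-3 in blue and BT474m1 in orange and bars for the 95% Poisson interval of the reads. BMF was highest with both drugs in each line (2434 and 2215), and BCL2 was lowest there (3.44 and 1.75).

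Levels were compared between genes per kilobase of the MANE Select transcript in GENCODE release 44, which is not the authors' annotation. With DMSO in SKBR-3, MCL1 stood at 1361 units per kb, BCL2L1 at 761 and BCL2 at 4.37. In BT474m1 with DMSO the same prosurvival genes stood at 1734, 1354 and 6.85 units per kb. MCL1 and BCL2L1 ranked first and second of the 10 in all 8 libraries, and BCL2 ranked last or next to last in each.

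Below these, the order differed between the lines. In SKBR-3 with DMSO the effectors BAK1 (523 units per kb) and BAX (318) stood above BCL2L11 (128), whereas BMF stood at 43.0. With both drugs BMF at 519 units per kb and BCL2L11 at 430.3 came next after MCL1 and BCL2L1, above BAK1 (233) and BAX (192). In BT474m1, BAX, BIK and BCL2L11 kept ranks 3 to 5 in all 4 libraries, and BMF went from 106 units per kb with DMSO to 472 with both drugs. The 4 lowest ranks in SKBR-3 with DMSO thus held BMF, BBC3, BCL2 and PMAIP1, of which only BMF had passed the effectors when both drugs were given.

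BCL2 encodes the founding member of the family, a membrane protein that binds BIM and BAX. In SKBR-3, BCL2 stood at 30.1, 8.42, 12.9 and 3.44 with DMSO, lapatinib, JQ1 and the pair, respectively, from 42, 11, 20 and 5 reads. The matching BT474m1 values were 47.1, 22.9, 12.1 and 1.75, from 100, 38, 25 and 3 reads. In each line the DMSO library was the highest of the 4 and the library with both drugs the lowest.

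With lapatinib the log2 fold change of BCL2 on the log2(value + 1) scale was -1.72 in SKBR-3 (95% counting interval -2.94 to -0.85) and -1.01 in BT474m1 (-1.62 to -0.49). With JQ1 it was -1.16 (-2.07 to -0.42) and -1.88 (-2.66 to -1.32). These intervals are the exact Clopper-Pearson intervals of the ratio of reads, with no pseudocount, and cover counting error only. All 4 excluded no change, and every one of these BCL2 values rested on 100 reads or fewer.

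With both drugs BCL2 was 8.74-fold lower than with DMSO in SKBR-3 (counting interval of the ratio 3.46 to 28.3) and 27.0-fold lower in BT474m1 (8.96 to 133), the latter on 3 reads. Against lapatinib alone, adding JQ1 gave a log2 difference of -1.09 in SKBR-3 with an interval that spans no change (-3.17 to 0.35). In BT474m1 the same difference was -3.12 (-6.05 to -2.05). The further drop below lapatinib alone thus exceeded counting error in BT474m1 and was not detectable at this depth in SKBR-3.

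BCL2L1 encodes BCL-XL as well as a shorter death-promoting form from another splice site, which these gene values do not separate. Across DMSO, lapatinib, JQ1 and the pair, BCL2L1 read 1958, 3175, 2421 and 3983 in SKBR-3. BT474m1 gave 3485, 2687, 3938 and 2513 over those libraries. The lapatinib libraries were thus the higher ones in SKBR-3 and the lower ones in BT474m1, with and without JQ1.

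With both drugs the log2 fold change of BCL2L1 against DMSO was 1.02 in SKBR-3 (0.96 to 1.09) and -0.47 in BT474m1 (-0.53 to -0.42). With JQ1 alone it was 0.31 and 0.18, the same direction in both lines. Of the bases of the BCL2L1 transcript, 36.7% are shared with exons of ABALON on the opposite strand. The sources name a stranded and an unstranded library kit, so reads of a gene and of its antisense partner cannot be told apart here.

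MCL1 encodes a short-lived prosurvival protein that binds BIM, NOXA and BAK, and its alternative splice form lacks that activity and is not separated here. The SKBR-3 values of MCL1, listed as DMSO, lapatinib, JQ1 and the pair, were 5377, 6361, 10527 and 8720.2. Those of BT474m1 were 6851, 7767, 10080.2 and 11369. In both lines the JQ1 libraries stood above the lapatinib library, and that library stood above DMSO.

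The log2 fold change of MCL1 with JQ1 was 0.97 in SKBR-3 (0.93 to 1.01) and 0.56 in BT474m1 (0.53 to 0.59), and with both drugs it was 0.70 and 0.73. None of these reached 2-fold, although MCL1 with JQ1 in SKBR-3 passed it, at 1.06, with median of ratios scaling. Relative to JQ1 alone, adding lapatinib gave -0.27 in SKBR-3 and 0.17 in BT474m1, each beyond counting error and in opposite directions.

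BMF encodes a BH3-only protein that is tied to the cytoskeleton and is known to act when cells detach or lose growth signals. Under DMSO, lapatinib, JQ1 and the pair, SKBR-3 had BMF at 202, 1083, 299.6 and 2434. For BT474m1 the 4 values were 496, 1287, 727 and 2215. The order of the 4 treatments was the same in both lines, from DMSO through JQ1 and lapatinib to both drugs, and each step exceeded counting error where a pair was compared.

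With lapatinib BMF was 5.36-fold higher in SKBR-3 (counting interval 4.72 to 6.12) and 2.60-fold higher in BT474m1 (2.41 to 2.80). With both drugs it was 12.1-fold higher (10.7 to 13.7) and 4.47-fold higher (4.17 to 4.79). On the log2 scale the change with both drugs, 3.59 in SKBR-3, lay above that of 99.8% of the genes kept, and the 2.16 in BT474m1 above 95.9%. The DMSO level of BMF was 2.45-fold higher in BT474m1, and with both drugs it stood at the near values of 2434 and 2215. Exons of BMF-AS1 on the opposite strand share 9.83% of the bases of the BMF transcript. No values were listed for BMF-AS1, and its reads could not be told apart from those of BMF.

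BCL2L11 encodes BIM in several splice forms, which can bind all prosurvival members. In SKBR-3, BCL2L11 stood at 654, 1469, 874 and 2194 with DMSO, lapatinib, JQ1 and the pair, respectively. The matching BT474m1 values were 1514, 2163, 1887 and 2819. As for BMF, the order of treatments was shared by the lines, and the DMSO library of BT474m1 lay above the lapatinib library of SKBR-3.

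The log2 fold change of BCL2L11 with lapatinib was 1.17 in SKBR-3 (1.05 to 1.28) and 0.51 in BT474m1 (0.44 to 0.58), and with both drugs it was 1.75 (1.64 to 1.85) and 0.90 (0.83 to 0.96). Only the SKBR-3 changes reached 2-fold. The noncoding gene MIR4435-2HG covers 14.3% of the BCL2L11 transcript on the opposite strand, and was listed at 142, 27.5, 59.0 and 11.7 in SKBR-3 and at 13.6, 3.31, 2.90 and 2.10 in BT474m1. It was lowest with both drugs in each line, where BCL2L11 was highest.

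BBC3 encodes PUMA, known as a target of forkhead factors. Across DMSO, lapatinib, JQ1 and the pair, BBC3 read 56.5, 113, 175 and 187 in SKBR-3. BT474m1 gave 175, 549, 334 and 672 over those libraries. JQ1 thus gave the larger single-drug value in SKBR-3 and lapatinib the larger one in BT474m1.

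For BBC3 the log2 fold change with both drugs was 1.71 in SKBR-3 (1.36 to 2.11) and 1.94 in BT474m1 (1.77 to 2.11), the closest pair of values among the 5 BH3-only genes. Adding lapatinib to JQ1 gave 0.10 in SKBR-3 (-0.15 to 0.35), which was within counting error. At the same step BBC3 was 2.01-fold higher in BT474m1. With lapatinib alone the SKBR-3 value was 0.99, just short of the 2-fold limit on the log2(value + 1) scale.

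PMAIP1 encodes NOXA, which binds MCL1 in particular. The SKBR-3 values of PMAIP1, listed as DMSO, lapatinib, JQ1 and the pair, were 4.29, 8.42, 4.51 and 13.8, from 6, 11, 7 and 20 reads. Those of BT474m1 were 86.8, 160.2, 84.1 and 47.8, from 82 to 266 reads. The library with both drugs was the highest of the SKBR-3 set and the lowest of the BT474m1 set.

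Among the DMSO libraries PMAIP1 was 20.2-fold higher in BT474m1 (9.10 to 55.8), the largest difference between the lines among the 10 genes. In BT474m1 adding JQ1 to lapatinib gave a log2 difference of -1.72 (-2.12 to -1.38), although JQ1 alone gave -0.04 against DMSO (-0.35 to 0.26). In SKBR-3 the log2 fold change with both drugs was 1.48 (0.31 to 3.29), on 20 reads against 6.

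BIK encodes a BH3-only protein found largely at the endoplasmic reticulum. Under DMSO, lapatinib, JQ1 and the pair, SKBR-3 had BIK at 48.0, 122, 65.1 and 181. For BT474m1 the 4 values were 336, 446, 414 and 549. BT474m1 lay above SKBR-3 in all 4 treatments, and the sets of 4 values did not overlap. The share of all genes with such a gap was not computed. With DMSO alone, 26.8% of all genes were at least 2-fold higher in BT474m1 and 15.6% lower.

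The log2 fold change of BIK with lapatinib was 1.33 in SKBR-3 (0.92 to 1.78) and 0.41 in BT474m1 (0.26 to 0.56), and with both drugs it was 1.89 (1.52 to 2.32) and 0.71 (0.57 to 0.85). With JQ1 alone the SKBR-3 value of 0.43 was within counting error (-0.02 to 0.91). BIK thus passed 2-fold with lapatinib in SKBR-3 only. The difference between the lines was not tested.

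Promoter sequences are shown for the 3 genes whose promoter held a motif searched, and for BMF, the BH3-only gene with the largest change with both drugs against DMSO in each line. RefSeq windows from 250 bases before to 50 after each start site were matched by symbol for 8 of the 10 genes, in 10 windows on GRCh38.p14. Each was searched on both strands for GTAAACA (a forkhead factor motif), CACGTG (an E-box) and GCGGGAA (an E2F motif), none of which overlapped another where found. Capitals mark the motifs in the sequences, which read 5′ to 3′ on the strand of the gene.
BCL2L11, chr2:111120664-111120963, plus strand: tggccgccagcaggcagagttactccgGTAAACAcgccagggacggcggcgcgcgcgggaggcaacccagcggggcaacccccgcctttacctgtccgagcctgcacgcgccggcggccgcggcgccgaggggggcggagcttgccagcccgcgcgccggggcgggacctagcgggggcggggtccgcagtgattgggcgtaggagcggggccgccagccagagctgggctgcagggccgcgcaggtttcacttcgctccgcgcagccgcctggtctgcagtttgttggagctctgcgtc
BMF, first window, chr15:40108830-40109129, minus strand: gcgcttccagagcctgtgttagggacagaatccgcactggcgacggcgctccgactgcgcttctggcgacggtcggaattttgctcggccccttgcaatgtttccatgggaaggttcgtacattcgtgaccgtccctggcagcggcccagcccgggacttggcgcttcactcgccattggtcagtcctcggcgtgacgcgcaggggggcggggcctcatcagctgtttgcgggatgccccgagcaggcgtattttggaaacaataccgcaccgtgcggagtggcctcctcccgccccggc
BMF, second window, chr15:40106917-40107216, minus strand: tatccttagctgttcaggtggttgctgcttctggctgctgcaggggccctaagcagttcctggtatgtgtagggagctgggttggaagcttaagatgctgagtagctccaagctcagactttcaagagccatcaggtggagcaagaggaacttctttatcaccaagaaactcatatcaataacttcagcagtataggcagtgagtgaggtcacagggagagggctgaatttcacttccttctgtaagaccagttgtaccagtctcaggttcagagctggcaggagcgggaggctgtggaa
BBC3, chr19:47232618-47232917, minus strand: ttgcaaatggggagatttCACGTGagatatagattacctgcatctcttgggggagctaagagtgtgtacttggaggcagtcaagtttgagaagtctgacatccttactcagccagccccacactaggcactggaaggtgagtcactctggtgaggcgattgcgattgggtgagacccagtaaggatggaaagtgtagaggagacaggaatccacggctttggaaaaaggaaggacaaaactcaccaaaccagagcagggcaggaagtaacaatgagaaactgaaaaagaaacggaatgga
BAX, chr19:48954625-48954924, plus strand: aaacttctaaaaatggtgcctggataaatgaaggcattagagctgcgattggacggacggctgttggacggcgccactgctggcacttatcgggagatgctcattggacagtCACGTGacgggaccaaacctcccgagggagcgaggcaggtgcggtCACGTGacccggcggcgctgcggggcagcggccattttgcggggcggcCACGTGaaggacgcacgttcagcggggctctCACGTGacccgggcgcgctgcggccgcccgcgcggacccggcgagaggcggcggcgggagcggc

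In the BCL2L11 window the forkhead motif GTAAACA begins at position -223 from the start site, and 3.42% of all 35116 RefSeq promoter windows of this length hold that motif. Neither BMF window held any of the 3. The E-box CACGTG, held by 7.26% of promoter windows, was found once in BBC3 (position -232) and 4 times in BAX (positions -138, -93, -45 and -14). None of the 10 windows, from 8 of the genes, held the E2F motif GCGGGAA, against 6.55% of all windows. These matches describe the letters in the windows and not binding, and no binding was measured in these libraries.

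BAX encodes an effector that moves from the cytosol to mitochondria when activated. In SKBR-3, BAX stood at 253, 123, 217 and 153 with DMSO, lapatinib, JQ1 and the pair, respectively. The matching BT474m1 values were 412, 392, 349.8 and 475. The lapatinib library was the lowest in SKBR-3, whereas in BT474m1 the highest was the one with both drugs.

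For BAX the log2 fold change with lapatinib was -1.03 in SKBR-3 (-1.31 to -0.76) and -0.07 in BT474m1 (-0.22 to 0.07), the latter within counting error. With both drugs it was -0.72 and 0.20. The 4 values in SKBR-3 and the 4 in BT474m1 did not overlap, but the share of all genes with such a gap between the lines was not computed.

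BAK1 encodes BAK, the effector that sits in the outer mitochondrial membrane. Across DMSO, lapatinib, JQ1 and the pair, BAK1 read 1134, 725, 1233 and 505 in SKBR-3. BT474m1 gave 439, 298, 506 and 384 over those libraries. Lapatinib, with or without JQ1, gave the 2 lowest values of BAK1 in each line, and JQ1 alone the highest.

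The log2 fold change of BAK1 with lapatinib was -0.64 in SKBR-3 (-0.76 to -0.53) and -0.56 in BT474m1 (-0.72 to -0.40). With both drugs it was -1.17 (-1.30 to -1.04) and -0.19 (-0.34 to -0.05). The increase with JQ1 alone, 0.12 in SKBR-3, turned to -0.02 when the libraries were scaled to equal totals. BAK1 was also the one gene of the 10 that was lower in BT474m1 than in SKBR-3 with DMSO, by 2.58-fold.

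**Figure D2:**
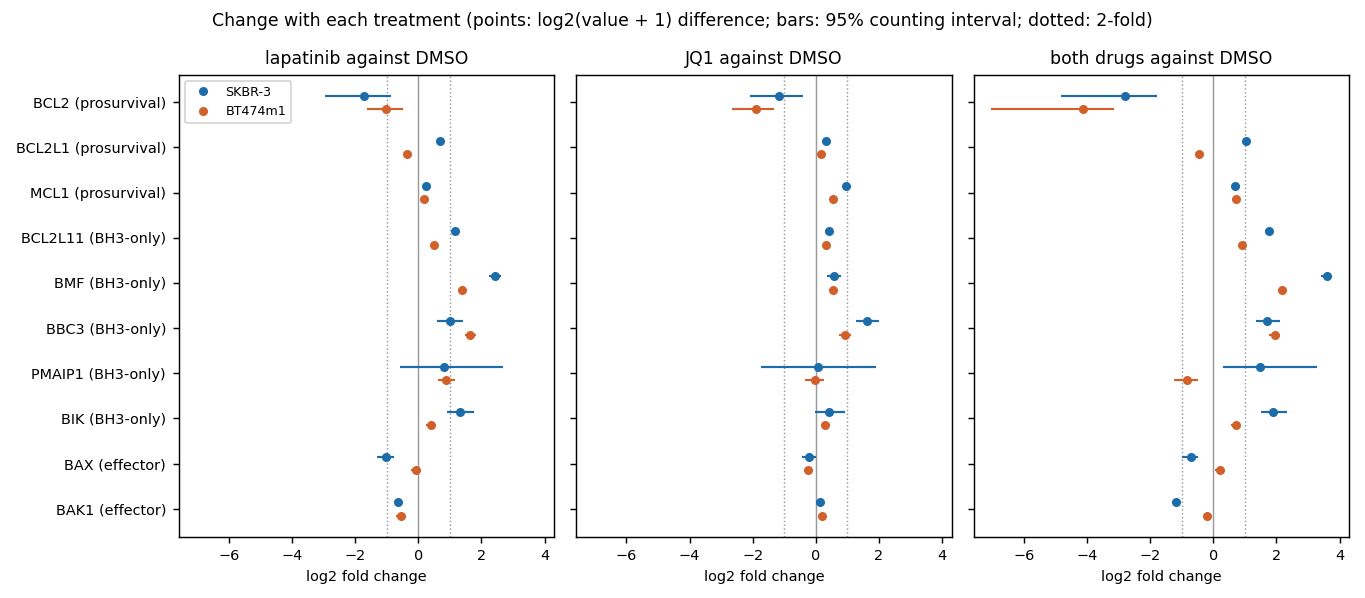
The 3 panels plot the log2 fold change against DMSO of each gene (horizontal axis) with lapatinib, JQ1 and both drugs, with points for SKBR-3 in blue and BT474m1 in orange, bars for the 95% counting interval and dotted lines at 2-fold. BMF lies right of the 2-fold line and BCL2 left of it with lapatinib and with both drugs in both lines.

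Counted over the 10 genes, lapatinib in SKBR-3 gave 3 raised at least 2-fold (BCL2L11, BMF and BIK) and 2 lowered (BCL2 and BAX), where 11.1% of all genes kept were raised and 9.44% lowered. In BT474m1 it gave 2 raised (BMF and BBC3) and 1 lowered (BCL2), against 14.0% and 8.06% of all genes. BMF was raised and BCL2 lowered in both lines, which held for 4.39% and 4.15% of all genes, although BCL2 in BT474m1 and BAX in SKBR-3 missed the limit with a pseudocount of 10. The direction was upward in both lines for 6 of the 10 genes and downward for 3, where 37.6% of all genes were upward and 28.6% downward in both. BCL2L1 alone had opposite signs, as 30.2% of all genes did.

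JQ1 alone raised 1 of the 10 in SKBR-3 (BBC3) and lowered 1 (BCL2), against 3.75% and 11.8% of all genes. In BT474m1 it raised 0 and lowered 1 (BCL2), against 4.81% and 11.8%. BCL2 was lowered in both lines, as 5.31% of all genes were, but missed the limit in SKBR-3 with a pseudocount of 10 (-0.81). BBC3 in BT474m1 lay just under the limit, at a log2 fold change of 0.93 (0.75 to 1.12). Changes with JQ1 were upward in both lines for 7 of the 10 genes (27.5% of all genes), downward for BCL2 and BAX (39.7%) and opposite for PMAIP1 (28.8%), whose SKBR-3 sign turned with scaling to equal totals, as that of BAK1 did.

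Both drugs together raised 6 of the 10 in SKBR-3, which were BCL2L1 and all 5 BH3-only genes, and lowered BCL2 and BAK1, against 10.8% raised and 20.8% lowered among all genes. Of these, PMAIP1 fell short of 2-fold with a pseudocount of 10, at 0.73, and BCL2L1 with scaling to equal totals, at 0.94. In BT474m1 they raised BMF and BBC3 and lowered BCL2, against 14.2% and 15.3%. BMF and BBC3 were raised in both lines, as 4.46% of all genes were, and BCL2 was lowered in both, as 8.93% were. The comparisons of one line share its DMSO library, so their counts are not independent of each other.

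As a group, the 5 BH3-only genes had a median log2 fold change with both drugs of 1.75 in SKBR-3, where the median of all genes was -0.08. In BT474m1 the group median was 0.90, where that of all genes was 0.00. The list of other BH3-only genes, of which BAD and BID passed the filter, had medians of -1.43 and -1.25, so that the direction was not shared by the BH3-only genes outside the 10. With lapatinib the group medians were 1.17 and 0.88, and with JQ1 0.43 and 0.32. The 3 prosurvival genes had medians with both drugs of 0.70 in SKBR-3 and -0.47 in BT474m1, and means of -0.36 and -1.29, because BCL2 lay far below MCL1 and BCL2L1. The 2 effectors had medians of -0.94 and 0.01.

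Adding JQ1 to lapatinib in SKBR-3 raised BMF (log2 difference 1.17, 1.08 to 1.26) and lowered BCL2, against 3.22% raised and 16.2% lowered of all genes. In BT474m1 it raised 0 of the 10 and lowered BCL2 and PMAIP1, against 5.20% and 12.5%. MCL1 was higher with the pair than with lapatinib in both lines, by 0.46 and 0.55 on the log2 scale. BMF in BT474m1 was higher by 0.78 (0.71 to 0.86). Over both lines this step raised 0 of the 10 genes and lowered BCL2, as it did 1.14% and 6.31% of all genes. The SKBR-3 difference of BCL2 rested on 5 reads against 11 and spanned no change (-3.17 to 0.35), and the call was lost there with a pseudocount of 10 and with median of ratios scaling. By sign, 6 of the 10 were upward in both lines (26.1% of all genes), BCL2 was downward (37.9%) and BCL2L1, PMAIP1 and BAK1 were opposite (31.9%).

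Adding lapatinib to JQ1 in SKBR-3 raised BCL2L11, BMF, PMAIP1 and BIK and lowered BCL2 and BAK1, against 9.79% and 12.3% of all genes. In BT474m1 it raised BMF and BBC3 and lowered BCL2, against 12.4% and 7.27%. BMF stood 8.12-fold above the JQ1 library in SKBR-3 (7.37 to 8.97) and 3.05-fold above it in BT474m1 (2.87 to 3.24). Over both lines this step raised BMF and lowered BCL2, as it did 3.60% and 3.95% of all genes. With a pseudocount of 10 the BCL2 call was lost in both lines (-0.77 in SKBR-3, on 5 reads against 20, and -0.91 in BT474m1), as was that of PMAIP1 in SKBR-3 (0.71, on 20 reads against 7). BBC3 in BT474m1, at the limit, fell short at 0.99 with that pseudocount and at 0.94 with median of ratios scaling. By sign, BCL2L11, BMF, BBC3 and BIK were upward in both lines (34.4% of all genes), and BCL2 and BAK1 were downward (29.8%). The other 4 genes had opposite signs (31.3%), among them BCL2L1, with log2 differences of 0.72 and -0.65.

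The lines were also put into 1 fit, limma on log2(value + 1) over the 14429 genes with cell line as a block, chosen after the data were seen. This fit takes the spread from how unlike the lines responded (3 residual degrees of freedom). Limma then drew each gene's spread toward a trend over all genes, so the p-values do not rest on that gene alone. With both drugs against DMSO, 5 of the 10 genes were raised and BCL2 was lowered at an adjusted p under 0.05, where 7.52% of all genes were raised and 10.9% lowered. The mean log2 changes of the lines were 2.87 for BMF (SE 0.37, limma adjusted p = 0.00514), 1.32 for BCL2L11 (SE 0.24, adjusted p = 0.0146) and 1.82 for BBC3 (SE 0.35, adjusted p = 0.0167). BCL2 had -3.47 (SE 0.65, limma adjusted p = 0.0156), and MCL1 and BIK passed at adjusted p = 0.0352 and 0.0483.

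With lapatinib the same fit called BMF alone among the 10 (mean log2 change 1.90, SE 0.37, limma adjusted p = 0.0405), against 1.73% of all genes raised and 2.92% lowered. BCL2 did not pass with lapatinib (adjusted p = 0.258 by limma) or with JQ1 (0.33). With JQ1 it called 0 of the 10, against 0.0139% of all genes raised and 0.0416% lowered. MCL1 and BBC3 had an unadjusted p under 0.05 there, as 15.3% of all genes did. Adding lapatinib to JQ1 raised BMF (2.31, SE 0.37, limma adjusted p = 0.0221), against 1.47% raised and 2.79% lowered. Adding JQ1 to lapatinib gave 0 calls among the 10, against 0.0347% of all genes raised and 0.215% lowered, and an unadjusted p under 0.05 for BCL2, MCL1 and BMF, as for 17.3% of all genes. Genes that moved in opposite directions in the lines cannot pass such a fit readily, and the fit gives no test within a line.

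The change with both drugs was next set against the sum of the log2 changes with each drug. In SKBR-3 none of the 10 genes lay 1 or more away from the sum, where 3.90% of all genes lay above it and 7.58% below it by that much. BMF lay 0.60 above its sum (0.37 to 0.83) and BBC3 0.89 below, with a difference of -0.89 (-1.35 to -0.43). BCL2L1 lay close to its sum, with a difference of 0.02 (-0.07 to 0.11), whereas the 0.08 of BCL2 had an interval too wide to place it (-1.63 to 1.78).

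In BT474m1, 2 of the 10 genes lay below the sum by 1 or more, as 4.73% of all genes did, and 0 lay above it, as 4.72% did. PMAIP1 had a sum of 0.83 and a change of -0.85, a difference of -1.68 (-2.14 to -1.21). BCL2 had a difference of -1.24, with an interval on so few reads that spans 0 (-3.05 to 0.57). BBC3 lay below its sum here too, by a difference of -0.64 (-0.86 to -0.42), and BMF 0.23 above (0.09 to 0.37). These differences are descriptive, because all 3 changes share the DMSO library, and their intervals are normal approximations on the log scale from the reads of the 4 libraries.

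**Figure D3:**
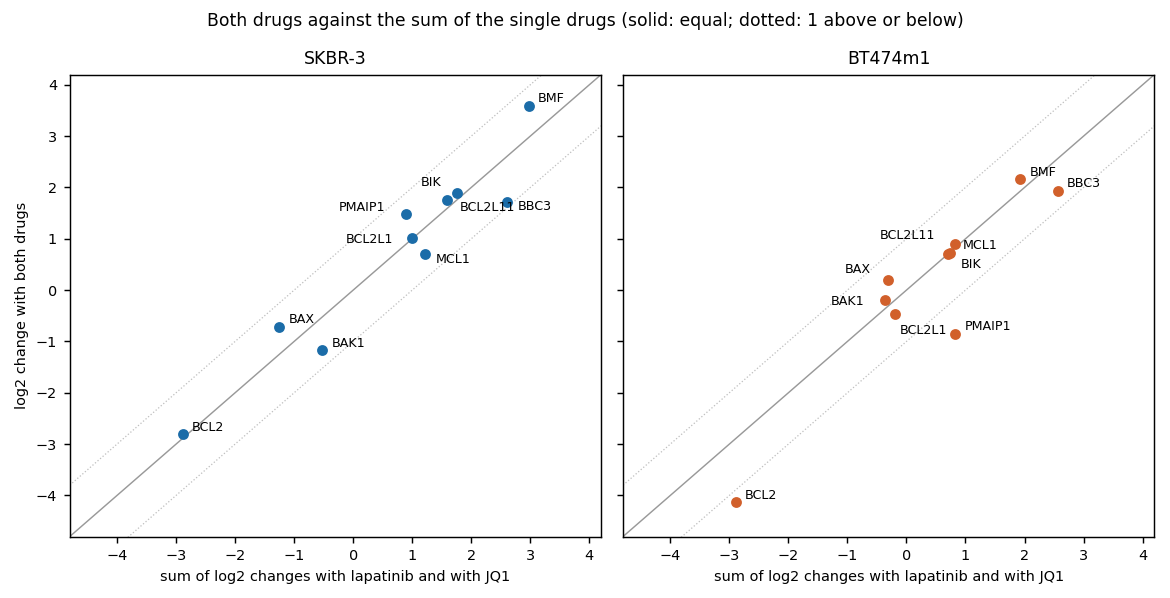
The panels plot, for SKBR-3 (left) and BT474m1 (right), the log2 change of each gene with both drugs (vertical axis) against the sum of its log2 changes with lapatinib and with JQ1 (horizontal axis), with the solid line where they are equal and dotted lines 1 above and below. PMAIP1 and BCL2 lie below the lower dotted line in BT474m1, and all 10 genes lie between the dotted lines in SKBR-3.

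Ratios of 2 genes within a library do not depend on how libraries are scaled. The log2 ratio of BCL2L11 to MCL1 in SKBR-3 lay above its DMSO value by 0.93 with lapatinib (0.80 to 1.05) and by 1.05 with both drugs (0.94 to 1.16), and lay below it with JQ1, at -0.55 (-0.68 to -0.42). In BT474m1 the same ratio differed by 0.33 with lapatinib, 0.17 with both drugs and -0.24 with JQ1. With JQ1 alone BCL2L11 was thus lower relative to MCL1 in both lines beyond counting error (intervals by normal approximation), although BCL2L11 itself was higher.

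The log2 ratio of BCL2L11 to BCL2L1 was higher than with DMSO in both lines with both drugs, by 0.72 in SKBR-3 (0.60 to 0.85) and by 1.37 in BT474m1 (1.28 to 1.45). With lapatinib it was higher by 0.47 and 0.89. BT474m1 thus showed the larger change against BCL2L1, whereas SKBR-3 showed the larger one against MCL1. The log2 ratio of BCL2 to MCL1 was lower in all 3 treatments of both lines, and lowest with both drugs, at -3.83 against DMSO in SKBR-3 (-5.16 to -2.49) and -5.48 in BT474m1 (-7.14 to -3.83).

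**Figure D4:**
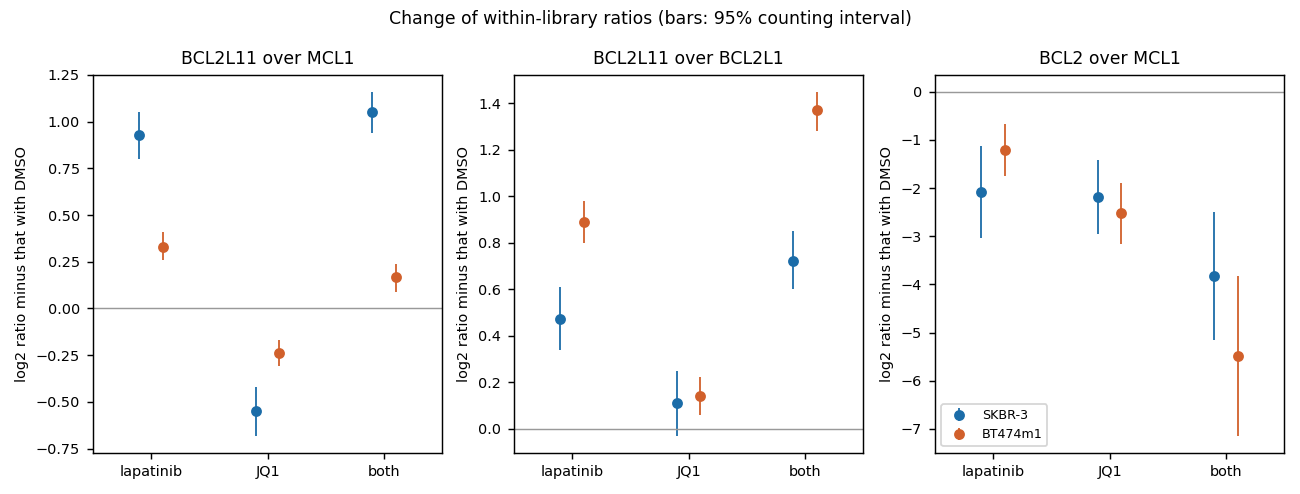
The 3 panels plot the change against DMSO of the within-library log2 ratios of BCL2L11 to MCL1, BCL2L11 to BCL2L1 and BCL2 to MCL1 with each treatment, with SKBR-3 in blue, BT474m1 in orange and bars for the 95% counting interval. The ratio of BCL2L11 to MCL1 lies above 0 with lapatinib and with both drugs and below 0 with JQ1 in each line.

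Between the DMSO libraries, 5 of the 10 genes were at least 2-fold higher in BT474m1 and 1 was lower, where 26.8% of all genes were higher and 15.6% lower. The 5 were the BH3-only genes: BCL2L11 by 2.32-fold, BMF by 2.45-fold, BBC3 by 3.09-fold, PMAIP1 by 20.2-fold and BIK by 2.78 on the log2 scale. The prosurvival genes were each higher in BT474m1 by less than 2-fold. The lines also differ in CDH1, COL1A1, CD68 and the hormone receptors, as given above, and the part of such differences in the values of the BCL2 family was not tested.

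Of 64 other genes of apoptosis and its control in 10 lists, 58 passed the filter. With lapatinib 5 of the 58 were raised in both lines and 3 lowered, against 4.39% and 4.15% of all genes. With JQ1 1 was raised and 2 lowered, against 1.16% and 5.31%, and with both drugs 4 were raised and 4 lowered, against 4.46% and 8.93%. The genes past 2-fold in both lines came mainly from the lists of transcription factors, death receptors and inhibitors of apoptosis.

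Among the transcription factors known to act on family members, FOXO3 and FOXO4, forkhead factors held out of the nucleus by AKT, were raised in both lines with lapatinib and with both drugs. FOXO3 had log2 fold changes with both drugs of 2.69 in SKBR-3 (829.6 to 5365) and 1.71 in BT474m1 (3318 to 10845), with the limit that FOXO3 shares sequence with the copy FOXO3B. FOXO4 had log2 fold changes with lapatinib of 1.52 and 1.74. DDIT3, the stress factor CHOP, had changes with both drugs of 3.93 in SKBR-3 and 1.42 in BT474m1.

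E2F1, a cell cycle factor, was lowered by lapatinib in both lines, to 66.6 against 752 with DMSO in SKBR-3 and to 17.5 against 525 in BT474m1. CDKN1A, the cyclin-dependent kinase inhibitor p21, was raised by JQ1 in both lines (log2 fold changes 1.96 and 1.64). Under the pair CDKN1A stood above DMSO in SKBR-3 (371 against 155) and below it in BT474m1 (106 against 177). GDF15, a secreted stress factor, was lowered by JQ1 in both (-1.72 and -1.81), and RRM2B, a subunit of ribonucleotide reductase, was raised by both drugs (1.09 and 1.19).

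Of the BCL2 relatives outside the 10, BID, the BH3-only protein cut by caspase-8, was lowered with both drugs in both lines, with log2 fold changes of -1.88 in SKBR-3 and -1.61 in BT474m1. BCL2L12 was lowered with lapatinib (-1.84 and -1.55). BCL2L2, the prosurvival BCL-W, did not reach 2-fold against DMSO in either line, and BCL2A1 and BCL2L10 lay at 1.41 or below in all 8 libraries. BAD, whose product binds BCL2 and BCL-XL, had log2 fold changes under the pair of -0.97 in SKBR-3 (-1.13 to -0.81) and -0.89 in BT474m1, beyond counting error in each. With the pair of drugs BID was thus lower in both lines, where the BH3-only genes BMF and BBC3 were higher.

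Downstream, BIRC5, which encodes survivin and is high in dividing cells, had log2 fold changes with both drugs of -7.39 in SKBR-3 and -6.63 in BT474m1. Its values under the pair were low, at 6.25 against 1211 with DMSO in SKBR-3 and at 7.59 against 851 in BT474m1. In the death receptor list TNFSF10, the ligand TRAIL, was raised by lapatinib in both lines, with 32 reads against 3 in SKBR-3 (log2 fold change 3.02, counting interval 1.84 to 5.86) and a log2 fold change of 2.34 in BT474m1. The TRAIL receptor genes were lowered in both lines under different treatments, TNFRSF10A with both drugs (-1.47 and -1.72) and TNFRSF10B with JQ1 (-1.09 and -1.03). CASP10, an initiator caspase, was raised by lapatinib in both lines but rested on 5 reads against 1 in SKBR-3 (counting interval of the log2 ratio -0.74 to 7.98). The 3 genes of MCL1 turnover (HUWE1, USP9X and FBXW7) gave no call against DMSO in either line.

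Likeness was described by Pearson's r of log2(value + 1), centred within each line, over the 8 libraries, for 11758 genes that reached 100 in at least 1 library. The libraries are shared by all genes and the treatments set most of their spread, so that high r is common and r is given without a test. BMF was most like OTUD5, a deubiquitinase gene (r = 0.999), followed by RHOU (0.996) and CSNK1D (0.994). BCL2L11 was most like TAX1BP1 (0.998), again followed by CSNK1D (0.995) and OTUD5 (0.994). BIK was most like ANKHD1-EIF4EBP3, a readthrough gene that shares reads with its neighbors (0.994).

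BCL2L1, with its opposite directions in the lines, was most like SEC31A (0.979), FOXA1 (0.969) and STYX (0.965). FOXA1, the luminal pioneer factor, had values of 5198, 7884, 6197 and 9779.5 in SKBR-3 and of 12907, 8957, 13200.0 and 10157 in BT474m1, in the order DMSO, lapatinib, JQ1 and both drugs. The order of the 4 treatments for FOXA1 was that of BCL2L1 in SKBR-3. In BT474m1 FOXA1 was lowest with lapatinib, whereas BCL2L1 was lowest with both drugs. BAK1 was most like SLC39A3 (0.995), BAX like ZNF326 (0.988), BBC3 like LOC400927 (0.992), BCL2 like NME2 (0.982) and PMAIP1 like C12orf66 (0.961). MCL1 spanned less than 2-fold within each line and was not included.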

How the data were processed

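Poly(A) RNA from 8 cultures was sequenced, 1 library per group, and groups were taken from the labels. The deposited tables hold 1 signal value for each gene, an RSEM estimate that the authors scaled to an upper quartile of 1000, and a treatment of 48 h per the labels was followed (the study's methods name a shorter one for its lines in general). The submitters' processing notes name hg19, RSEM, Picard 1.88, SAMtools 1.2, R 3.2.2 and DESeq2 1.12.3, whereas the study's methods name another build and other tools, and both a stranded and an unstranded kit are named. No gene coordinates from the tables' build were used, and promoters carry their own build.

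The analysis used scipy 1.17.1, pandas 2.3.3, numpy 2.4.6 and, for plots, matplotlib 3.10.9, under Python 3.11.15. A gene entered (14429 of 20531) if any library reached 10. Fold changes were differences of log2(value + 1), called at 2-fold. With 1 library per group no test was made within a line. The lines were tested together with limma 3.58.1 in R 4.3.3 (line as a block, Benjamini-Hochberg adjustment over all genes kept), an alternative added after the data were seen, whose p-values measure the spread between 2 lines and not between cultures. Each gene's spread was drawn toward a trend over all genes kept. The value of 1 read was recovered per library, and gave whole reads, within 0.05, for 85.0% to 86.4% of the values above 0. The 95% Clopper-Pearson intervals, and the floor of 3 reads (1.41 to 2.30 units), cover counting error only, since PCR copies of a molecule could not be told from separate molecules. The method was tested on simulated data.

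The genes named were the 10 members, the listed pathway genes past 2-fold in both lines, and the 3 genes most like each member that spanned at least 2-fold in a line. BAD, BCL2L2, BCL2A1, BCL2L10 and the MCL1 turnover genes go beyond that rule and were picked with the values in view. Members and lists were chosen with earlier results of these data known. The alternatives were a pseudocount of 10, 2 other scalings, no filter, a filter at 100, a fold of 1.5, counting only changes whose interval excluded no change, and the mean of a list. Results for some listed items are not reported here.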

Additional observations from a re-analysis of the deposited data

Results flagged for a closer look

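Of 50 pairs of changes looked at (10 genes in 5 comparisons), 10 had opposite directions in SKBR-3 and BT474m1 with both intervals excluding no change. By sign alone, 28.8% to 31.9% of all genes were opposite in these comparisons. The share of all genes that also met the interval rule was not computed, so the count is not set apart from that of other genes. With 1 library per group the difference between the lines was not tested, and the values below are the log2 change in SKBR-3 minus that in BT474m1.

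BCL2L1 differed in 4 comparisons, by 1.07 with lapatinib against DMSO, 1.49 with both drugs against DMSO, 0.43 with both drugs against lapatinib and 1.37 with both drugs against JQ1. In each the SKBR-3 change was upward and the BT474m1 change downward. PMAIP1 differed by 2.33 with both drugs against DMSO and by 2.22 with both drugs against JQ1, again upward in SKBR-3, where it rested on 20 reads or fewer.

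BAX differed by -0.92 with both drugs against DMSO and by -0.95 with both drugs against JQ1, downward in SKBR-3. BAK1 differed by -0.89 with both drugs against lapatinib. MCL1 differed by -0.44 with both drugs against JQ1, from changes of -0.27 and 0.17.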

How the results depend on the processing

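Of 87 recomputed counts of members, 71 stayed within 1.5 times the reported count, and 32 member values moved by more than counting error, with none of the called ones turned. For the lists of other genes, 124 of 660 recomputed medians moved by more than the median counting error of the list. Of these, 50 were where the mean replaced the median. With a pseudocount of 10, the members called fell to 1 each for JQ1 against DMSO in SKBR-3 (BBC3), both drugs against lapatinib in SKBR-3 (BMF), both drugs against JQ1 in BT474m1 (BMF) and the sum in BT474m1 (PMAIP1), with BCL2 under the limit in each, and BBC3 too for both drugs against JQ1. The same pseudocount moved BCL2 with both drugs in BT474m1 from -4.13 to -2.28. It also ended the calls of BCL2 with lapatinib in BT474m1 (-0.80), BAX with lapatinib in SKBR-3, PMAIP1 with both drugs in SKBR-3 (0.73) and, for both drugs against JQ1 in SKBR-3, BCL2 (-0.77) and PMAIP1 (0.71). Median of ratios scaling ended that of BBC3 for both drugs against JQ1 in BT474m1 (0.94) and gave one to MCL1 with JQ1 in SKBR-3 (1.06), and equal totals ended that of BCL2L1 with both drugs in SKBR-3 (0.94). A filter at 100 removes BCL2, which left 1 member for JQ1 in SKBR-3, 1 for both drugs against lapatinib in each line, 1 off the sum in BT474m1 and 0 for JQ1 in BT474m1. The same count for both drugs against lapatinib in SKBR-3 was 1 with median of ratios scaling and 1 where the interval had to exclude no change. At a fold of 1.5 the count was 9 for lapatinib and 4 for both drugs against lapatinib in SKBR-3, and 2 for JQ1, 7 for both drugs and 5 for both drugs against JQ1 in BT474m1, where the shares of all genes raised at that fold ran from 8.52% to 24.8% and those lowered from 14.5% to 27.0% over these comparisons.

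Scaling to equal totals moved the median of all genes with JQ1 in SKBR-3 from -0.08 to -0.22 and turned the uncalled PMAIP1 from 0.06 to -0.06 and BAK1 from 0.12 to -0.02. The limma fit with cell line as a block, added after the data were seen, called 1 member with lapatinib (2 past 2-fold in both lines), 0 with JQ1 (1), 6 with both drugs (3), 0 for both drugs against lapatinib (1) and 1 for both drugs against JQ1 (2). No replicate was left out, since each group held 1 library. Depth limits BCL2 with both drugs (5 and 3 reads) and PMAIP1 in SKBR-3 (6 to 20 reads).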
